A study of Mus musculus with 5 samples.

Results

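The interferon response is the transcriptional programme that cells switch on when they meet viral or misplaced nucleic acid, and 35 of its genes were followed here in uteri that lack Dicer. The genes were listed by name as known parts of this response. The rule that lists them uses no measured value, but the genes were chosen with earlier results of these data known. Of the 35, 34 had a probe listed under their own or an older name, such as G1P2 for Isg15, and these 34 genes had 68 probes. The arrays list most of them in capitals (OASL1, USP18, IFIT2, IFIT3, GBP2, IRF7). Each gene was represented by its brightest probe over all 5 arrays, as the mean log2 intensity. Of the 34, 27 were detected on at least 2 of the 5 arrays and were tested, among 15733 genes tested in all. The other 7 (Ifih1, Tlr3, Oas1a, Oas1b, Oas3, Ifit1 and Mx1) were detected on no array, and no probe was found for Xaf1.

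Dicer cuts long double-stranded RNA and microRNA precursors. Double-stranded RNA is sensed in the cytoplasm by RIG-I (the product of Ddx58) and Mda5 (Ifih1), and in endosomes by Tlr3. These sensors lead to type I interferon through Irf3 and Irf7. Interferon in turn activates a complex with Stat2 and Irf9, which binds an element of repeated GAAA in the promoters of part of the response genes. The comparison asks whether these genes are induced where Dicer is lost. The arrays measured mRNA, so uncut double-stranded RNA itself was not measured.

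Uteri came from mice aged 15 days on a mixed background of C57BL/6J and 129S5/Brd. The Dicer cKO mice carried a Cre knockout of Dicer, with Cre expressed from the progesterone receptor locus, and the controls are labelled wild type. No source used here says whether the controls carried Cre or a floxed allele. Control pools numbered 3 (pools 7, 9 and 11), and Dicer cKO pools 2 (pools 10 and 12). Each pool of uteri was read on 1 Illumina bead array, with the number of uteri in it unstated. All p-values therefore rest on the spread from pool to pool. With so few pools, limma draws the spread of each gene towards that of genes of similar intensity, so a p-value does not rest on that gene's pools alone. Only cells with an active progesterone receptor gene make this Cre, so each pool also holds cells that keep Dicer. In whole uteri, fewer cells of a type and less RNA per cell cannot be told apart.

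On each array between 47.0% and 49.5% of 45281 probes were detected, with a median of 44 beads per probe. The correlation of log2 intensity over all genes tested was 0.993 between the Dicer cKO pools and 0.993 to 0.994 among the controls. Dicer1 itself was lower by a log2 difference of -0.43 ± 0.09 (SE; limma adjusted p = 0.0224), and its dimmer probe gave -0.22 and was not called (limma adjusted p = 0.392). The Dicer1 call was lost in 7 of 14 settings: without pool 7, 9, 11 or 10 (limma adjusted p from 0.0574 to 0.176), with median centring (0.0508), with probes averaged (0.0791) and without an intensity trend (0.0526). Markers of uterine stroma (7 of 7 tested), myometrium (7 of 7), endothelium (6 of 6) and epithelium (6 of 7, without Epcam, whose probe was not detected) were present. Among them Krt18, Foxa2, Krt19, Krt8 and Vim were called lower and Cldn4 higher in Dicer cKO pools. Foxa2 was detected on all 3 control arrays and on neither Dicer cKO array.

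The response genes did not rise together in Dicer cKO uteri. Of 27 tested, 1 rose, Oasl1, and none fell. That is 3.70% higher, against 2.78% of all 15733 genes called higher, 3.96% called lower and 6.74% called either way (limma, Benjamini-Hochberg adjusted p under 0.05). Oasl1 was detected on 1 of 3 control arrays and both Dicer cKO arrays. It thus passed the detection filter only through the Dicer cKO pools, where it was high. With detection required on all 5 arrays it was not tested, and 0 members were called higher. At an unadjusted p under 0.05, 2 members were higher and none lower, while 20.8% of all genes passed in either direction. The median log2 difference was -0.01 over the 27, -0.02 without Oasl1 and -0.01 over all 34 with a probe, against 0.01 over all genes tested. The median absolute difference was 0.12 over the 27 and 0.13 over all genes. By the mean of the 2 Dicer cKO pools, 12 of the 27 stood above the control mean and 15 below it. The pools differed in this: 7 stood above and 20 below in pool 10, and 18 above and 9 below in pool 12. Of all genes tested, 52.9% stood above the control mean in pool 10 and 52.6% in pool 12.

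**Figure D1:**
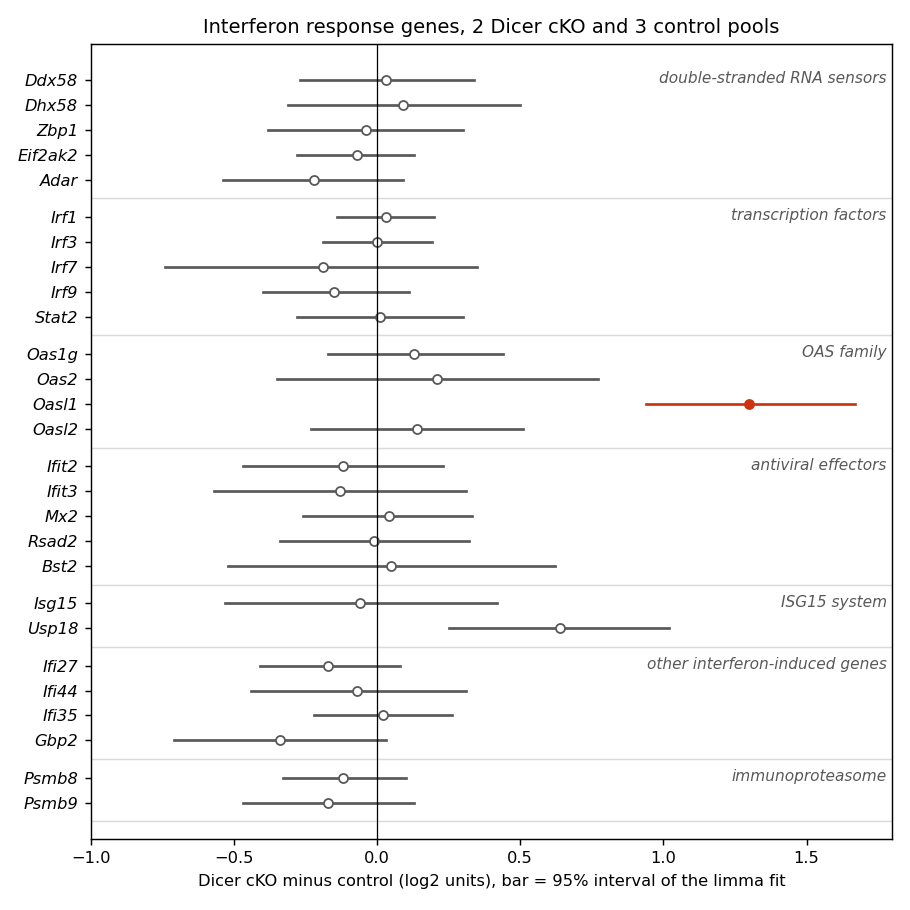
Difference between Dicer cKO and control pools for each of the 27 interferon response genes tested, in log2 units on the x axis, grouped by role. Points are the fitted differences, bars the 95% intervals of the limma fit and the filled point the member with an adjusted p under 0.05; 26 of 27 points lie between -0.34 and 0.64, and Oasl1 stands at 1.30.

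The 26 members that were not called had differences between -0.34 and 0.64. Their 95% intervals lay between -0.74 and 1.02 at the widest, and for 25 of the 26 the whole interval lay within 1 log2 unit of 0. For 21 of the 26 the upper end was below 0.5. An adjusted p above the threshold does not show that a gene was unaltered. These intervals give the sizes that the fit leaves possible on this offset scale, which compresses the differences of dim genes. They also rest on a spread drawn towards that of other genes of similar intensity.

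Promoters are shown here because the complex with Stat2 and Irf9 binds its element in the promoters of part of the response genes. The motif, the letters GAAA, then any 2 bases, then GAAA again, was searched on both strands of RefSeq promoter windows (GRCm38.p6) that run from 250 bases before to 50 bases after a gene's start, and overlapping matches were counted separately. Of 27 response genes with a window, 13 held it (48.1%), against 3.99% of 27025 genes with a window. Among tested members 9 held it and 12 did not, and all 4 remaining matches were in genes that were not detected. Usp18, Oas1b, Oas2, Dhx58, Zbp1, Mx1, Mx2 and Ifi27 had no window in the table. The 160 bases before the start are printed 5′ to 3′ on the gene's strand for Isg15, Ifit3 and Oas1g, which hold the motif, and for Oasl1, the member that rose; capitals mark matches to the motif or, for the opposite strand, to TTTC, any 2 bases and TTTC.
Isg15 (chr4:156200819-156200978, minus strand): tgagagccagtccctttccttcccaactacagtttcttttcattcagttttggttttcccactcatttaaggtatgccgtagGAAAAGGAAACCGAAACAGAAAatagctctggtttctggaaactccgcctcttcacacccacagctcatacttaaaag
Ifit3 (chr19:34583369-34583528, plus strand): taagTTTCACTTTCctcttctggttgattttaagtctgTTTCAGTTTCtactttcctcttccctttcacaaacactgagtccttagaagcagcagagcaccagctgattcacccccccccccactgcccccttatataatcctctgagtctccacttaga
Oas1g (chr5:120887614-120887773, minus strand): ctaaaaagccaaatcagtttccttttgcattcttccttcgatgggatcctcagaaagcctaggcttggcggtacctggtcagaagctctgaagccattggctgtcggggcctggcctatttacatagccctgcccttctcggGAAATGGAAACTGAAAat
Oasl1 (chr5:114923080-114923239, plus strand): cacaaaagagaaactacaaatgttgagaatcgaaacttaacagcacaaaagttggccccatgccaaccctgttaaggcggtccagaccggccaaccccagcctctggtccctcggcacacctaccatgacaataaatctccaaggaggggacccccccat

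Isg15 held 3 overlapping matches, Ifit3 2 separate ones and Oas1g 2 overlapping ones just before its start. These genes, whose windows carry the motif, had differences of -0.06, -0.13 and 0.13 and were not called. The Oasl1 window held no match, which says only that these letters are not in this window.

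The double-stranded RNA sensors and binding proteins showed no call among the 5 tested. They were Ddx58, which encodes RIG-I, Dhx58, a helicase that modulates RIG-I and Mda5, Zbp1, a sensor of Z-form nucleic acid, Eif2ak2, the kinase PKR that halts translation when it binds double-stranded RNA, and Adar, the enzyme that edits adenosine in it. Adar had log2 intensities of 8.24, 7.88 and 8.09 in controls 7, 9 and 11, against 7.70 and 8.0 in Dicer cKO pools 10 and 12. The groups overlapped, with pool 10 the lowest, and the difference was -0.22 ± 0.14 (SE; limma adjusted p = 0.415). Eif2ak2 read 8.89, 8.86 and 8.97 in the controls and 8.79 and 8.88 in the Dicer cKO pools. The groups overlapped, and the 95% interval of the difference, -0.28 to 0.13, was the narrowest of the 5 sensors. The differences were -0.07 for Eif2ak2, 0.03 for Ddx58, 0.09 for Dhx58 and -0.04 for Zbp1. Dimmer detected probes gave -0.27 and -0.20 for Dhx58, and -0.05, -0.17 and 0.07 for Adar, none of them called.

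Mda5 and Tlr3, the other sensors, were not detected in either group. The Ifih1 probe had detection p-values between 0.155 and 0.398 over the 5 arrays and the Tlr3 probe between 0.0626 and 0.460, where detection required a value under 0.05. Their levels can therefore be given only as not above background in both groups, with no fold.

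None of the 5 transcription factors was called. Irf3 and Irf7 drive transcription of interferon genes, Irf1 is a factor induced strongly by interferon gamma, and Stat2 and Irf9 belong to the complex that interferon activates. Irf9 read 8.79, 8.75 and 8.69 in controls 7, 9 and 11, against 8.44 and 8.75 in Dicer cKO pools 10 and 12. Pool 10 was the lowest and pool 12 lay inside the control range, with a difference of -0.15 ± 0.11. Irf7, itself an interferon-induced gene, read 5.37, 4.79 and 5.15 in the controls and 4.50 and 5.33 in the Dicer cKO pools. It was detected on 2 of 3 control arrays and 1 of 2 Dicer cKO arrays, and its difference of -0.19 ± 0.24 was smaller than the SD of either group (0.29 and 0.59). Irf1 (0.03), Irf3 (-0.00) and Stat2 (0.01) differed by at most 0.03, and Irf1 and Irf3 were measured with 95% intervals of -0.14 to 0.20 and -0.19 to 0.19. Dimmer detected probes gave -0.32 for Irf9, -0.31, 0.14, 0.07 and 0.07 for Irf1, and -0.18 and -0.03 for Irf3, none of them called.

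The OAS family held the member that rose. OAS enzymes make short oligoadenylates on binding double-stranded RNA, which activate an RNase, while the OAS-like protein Oasl1 has lost that activity and is known to restrain translation of Irf7 mRNA. Oasl1 read 4.66, 4.72 and 5.12 in controls 7, 9 and 11, against 6.15 and 6.13 in Dicer cKO pools 10 and 12. Both Dicer cKO pools lay above all controls and were 0.02 apart. The difference was 1.30 ± 0.16 (SE; 95% interval 0.94 to 1.67; limma adjusted p = 0.00155), a 2.47-fold difference of means on this offset scale.

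Before normalization, the Oasl1 probe had intensities of 56.0 ± 2.7, 56.1 ± 2.8 and 62.3 ± 3.7 (SE over 30 to 33 beads) on control arrays 7, 9 and 11. On Dicer cKO arrays 10 and 12 it had 95.4 ± 5.3 and 101.8 ± 4.2 (SE over 35 and 49 beads). The dimmest detected probe of an array had an intensity between 59.0 and 63.6, so the controls sat at the edge of background: Oasl1 was detected on 1 of 3 control arrays and on both Dicer cKO arrays. It passed the detection filter only through the Dicer cKO pools, since detection on 1 control array would not have been enough. The other two Oasl1 probes were detected on no array, with differences of 0.28 and 0.09, so the call rests on a single probe. The log2 difference was 0.67 without background correction and 0.74 with an offset of 50, and it was called in both.

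The other OAS genes tested were not called. Oas1g read 7.53, 7.40 and 7.39 in controls 7, 9 and 11, against 7.38 and 7.76 in Dicer cKO pools 10 and 12, so the groups overlapped and the difference was 0.13 ± 0.14 (limma adjusted p = 0.646). Oas2 (0.21 ± 0.25) and Oasl2 (0.14 ± 0.17) were not called either. A dimmer detected probe gave 0.39 for Oas1g and another 0.05 for Oasl2, neither of them called. Oas1a, Oas1b and Oas3 were detected on no array. C57BL/6 mice are known to carry an Oas1b gene that encodes a truncated protein. The Oas1 genes are a cluster of near-identical copies, and whether their probes tell the copies apart was not tested.

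Usp18, the protease that removes Isg15 from proteins and blocks signalling at the interferon receptor, came closest to the threshold among members not called. It read 6.43, 6.41 and 6.56 in controls 7, 9 and 11, against 6.82 and 7.40 in Dicer cKO pools 10 and 12. Both Dicer cKO pools lay above the controls, pool 12 by the wider margin, and the difference was 0.64 ± 0.17 (95% interval 0.25 to 1.02; limma adjusted p = 0.0569). Its other 2 probes differed by 0.59 and 0.60, also with both Dicer cKO pools above all controls, and were not called. Without Dicer cKO pool 10 the difference was 0.93 (limma adjusted p = 0.0272), without pool 12 it was 0.35 (0.248), and with a robust spread Usp18 was called at its full value (0.0453). Oasl1 and Usp18 were the 2 of 27 members (7.41%) whose Dicer cKO pools lay above all controls, against 19.9% of all genes tested, and no member had both below, against 17.6% (37.6% of all genes either way).

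Isg15 itself, a ubiquitin-like protein and one of the most inducible genes of the response, read 6.21, 5.93 and 6.03 in control pools 7, 9 and 11. In Dicer cKO pools 10 and 12 it read 5.61 and 6.39, the lowest and the highest of the 5 pools. The difference was -0.06 ± 0.21 (95% interval -0.53 to 0.42).

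**Figure D2:**
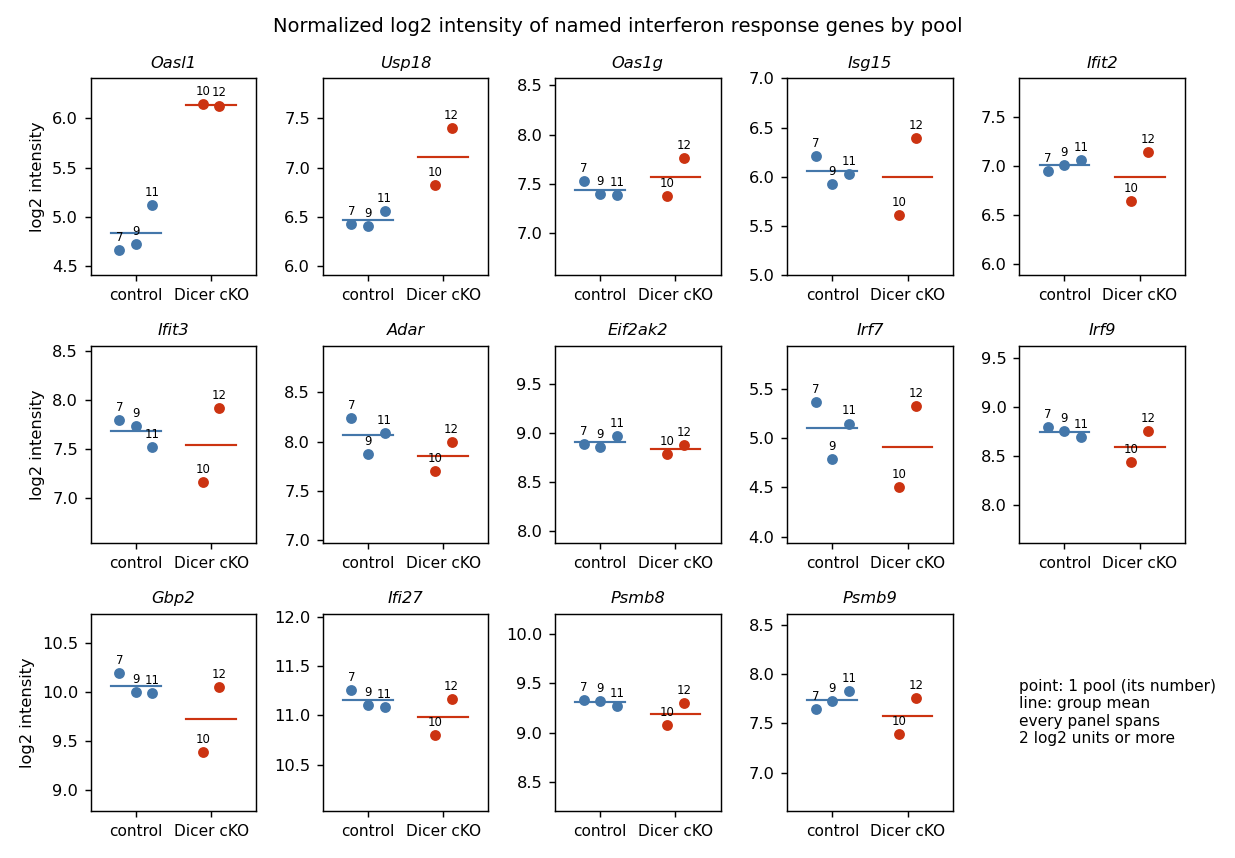
Normalized log2 intensity (y axis) of 14 interferon response genes in each pool, with control pools 7, 9 and 11 on the left of a panel and Dicer cKO pools 10 and 12 on the right; lines are group means. Only in the panels of Oasl1 and Usp18 do both Dicer cKO pools lie above all controls, while for Isg15 they are the lowest and the highest pool.

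The antiviral effectors gave no call among the 5 tested. Ifit2 and Ifit3 encode members of a protein family, part of which binds viral RNA and holds back its translation. Ifit2 read 6.95, 7.01 and 7.06 in controls 7, 9 and 11, against 6.64 and 7.14 in Dicer cKO pools 10 and 12. Ifit3 read 7.80, 7.73 and 7.52 in the controls and 7.17 and 7.92 in the Dicer cKO pools. For both genes pool 10 was the lowest and pool 12 the highest of all, and the differences were -0.12 ± 0.16 and -0.13 ± 0.20. Mx2 (0.04), Rsad2, which encodes viperin (-0.01), and Bst2, the tether that holds budding virus (0.05), differed by less. Dimmer detected probes gave 0.04 for Ifit2, and -0.24 and -0.09 for Ifit3, none of them called. Ifit1 and Mx1 were not detected on any array, Dicer cKO arrays included, with detection p-values from 0.155 to 0.393 and from 0.491 to 0.782. C57BL/6 mice are known to carry a deletion in Mx1.

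Of the 6 other induced and immunoproteasome genes tested, none was called, and 4 (Gbp2, Ifi27, Psmb8 and Psmb9) were lowest in pool 10. Gbp2, a guanylate-binding GTPase induced by interferon gamma, read 10.19, 10.00 and 9.99 in controls 7, 9 and 11, against 9.39 and 10.05 in Dicer cKO pools 10 and 12. The difference of -0.34 ± 0.16 was not called (limma adjusted p = 0.283), although it was -0.67 and called without pool 12 (0.0151) and -0.00 without pool 10 (0.993). Ifi27, a small mitochondrial membrane protein gene, read 11.26, 11.11 and 11.09 in the controls and 10.80 and 11.17 in the Dicer cKO pools, a difference of -0.17 ± 0.11. Psmb8 and Psmb9 encode catalytic subunits that replace those of the standard proteasome under interferon. Psmb8 read 9.33, 9.32 and 9.27 in the controls and 9.08 and 9.30 in the Dicer cKO pools, and Psmb9 read 7.65, 7.73 and 7.83 against 7.39 and 7.76. The groups overlapped for both, with differences of -0.12 ± 0.10 and -0.17 ± 0.14. Ifi44 (-0.07) and Ifi35 (0.02) did not share this order: Ifi44 was lowest in control pool 11, and Ifi35 was highest in pool 10. Dimmer detected probes gave -0.49 for Gbp2, -0.02 for Ifi27 and -0.01 for Psmb8, none of them called.

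The Dicer cKO pools were not alike over the response genes. Pool 12 was higher than pool 10 for 21 of 27 members (77.8%), against 49.0% of all genes tested, with a median log2 difference of 0.30 over members and -0.00 over all genes. Pool 10 was the lowest of the 5 pools for 15 of 27 members, against 25.1% of all genes, and pool 12 the highest for 9, against 17.6%. Control pool 7 was also the highest for 9, against 22.1%. Measured from the control mean, the members' median was -0.12 in pool 10 and 0.04 in pool 12. Control pools 7, 9 and 11, each measured from the mean of the other controls, had medians of 0.08, -0.06 and -0.08. Oas2 showed the widest gap, at 5.17 in pool 10 and 6.21 in pool 12 with controls between 5.36 and 5.54; Oasl2 stood at 8.65 and 9.32 with controls between 8.78 and 8.89. Both were picked out after their values were seen. Without pool 10 neither was called (limma adjusted p = 0.0931 and 0.0880).

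**Figure D3:**
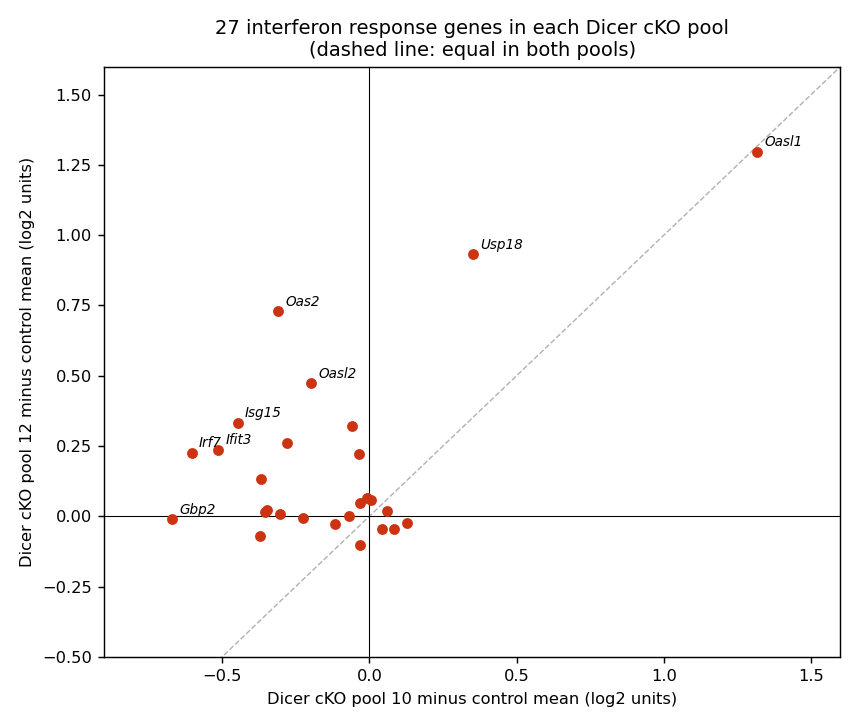
Log2 difference from the control mean for 27 interferon response genes, with Dicer cKO pool 10 on the x axis and Dicer cKO pool 12 on the y axis; both pools are set against the same controls. Of the 27 points, 21 lie above the dashed line of equality, and Oasl1 lies near that line at the far upper right.

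Interferon genes themselves were mostly below detection. Of 18 ligand genes with a probe, 12 were detected on no array, among them Ifnb1 and Ifng, and 5 were tested, of which limma called none (none also at an unadjusted p under 0.05). Ifne, the interferon made constitutively by uterine epithelium, listed as IFNT1, was detected on 1 of 3 control and 1 of 2 Dicer cKO arrays, with a difference of 0.03 ± 0.15. Ifna14, with the largest moderated t of the list, was detected on all 3 control arrays and neither Dicer cKO array and read -0.20 ± 0.14. Ifna1, Ifnab and Ifnz were detected on all 5 arrays, with differences of 0.08 ± 0.13, -0.16 ± 0.12 and -0.11 ± 0.16. Interferon alpha genes are near-identical copies, whose transcripts the probes may not tell apart.

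In the 6 further pathway lists after the ligands, 9 of 101 genes tested were called (8.91%, against 6.74% of all genes). Of these, 2 were higher and 7 lower, where 2.78% of all genes were called higher and 3.96% lower. The 7 include Dicer1, the gene knocked out by design. Undetected genes are outside these counts. Among them were Ifnar1, Socs1 and 13 of the 43 further interferon-stimulated genes with a probe, all detected on no array. Of 10 tested receptors and kinases, Jak2, the kinase used by the interferon gamma receptor and many cytokine receptors, fell. It read 10.48, 10.19 and 10.31 in controls 7, 9 and 11, against 9.48 and 9.71 in Dicer cKO pools 10 and 12, with no overlap, a difference of -0.74 ± 0.11 (limma adjusted p = 0.00358), and a second detected probe gave -0.72. The call was lost without pool 10 (0.0533).

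Among 17 tested signalling genes below the sensors, Myd88, the adaptor of most Toll-like receptors but not of Tlr3, fell. It read 11.63, 11.05 and 10.63 in controls 7, 9 and 11, against 9.94 and 10.00 in Dicer cKO pools 10 and 12. The controls spread over 1 log2 unit yet all lay above the Dicer cKO pools, and the difference was -1.13 ± 0.22 (limma adjusted p = 0.0139), with -1.16 from a second probe. The call was lost without pool 10 (0.141) or pool 12 (0.0604), without an intensity trend (0.0506) and with a robust spread (0.133). Of 17 tested restraints of the response 1 was called, Rnf125, a ubiquitin ligase that acts on RIG-I (-0.64 ± 0.15; limma adjusted p = 0.0385, lost in 8 of 14 settings). Its 3 probes were all lower, at -0.64, -0.72 and -0.28.

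Of 29 further interferon-stimulated genes tested, 1 rose and 2 fell, with a median of -0.09. Lgals3bp, a secreted glycoprotein gene, rose by 0.39 ± 0.09 (limma adjusted p = 0.0277), and Ifitm1 and Ifitm3, which encode membrane proteins that block viral entry, fell by 0.29 and 0.25 (limma adjusted p = 0.0461 and 0.0462). These calls were lost in 6, 8 and 9 of 14 settings, among them with most of the pools left out singly. Further Ifitm1 probes fell by 0.87 and 0.93 and were called. Among 16 genes of antigen presentation by MHC class I, another target of interferon, Tapbp, which loads peptide onto class I molecules, fell by 0.71 ± 0.13 (limma adjusted p = 0.00857, lost without pool 10 at 0.0780), while its dimmer probe at -0.35 was not called. The median of that list was -0.04. Among 12 tested genes of double-stranded RNA handling, Tarbp2, the Dicer partner, was called higher (0.48 ± 0.11; limma adjusted p = 0.0365, lost in 9 of 14 settings) and Dicer1 lower.

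**Figure D4:**
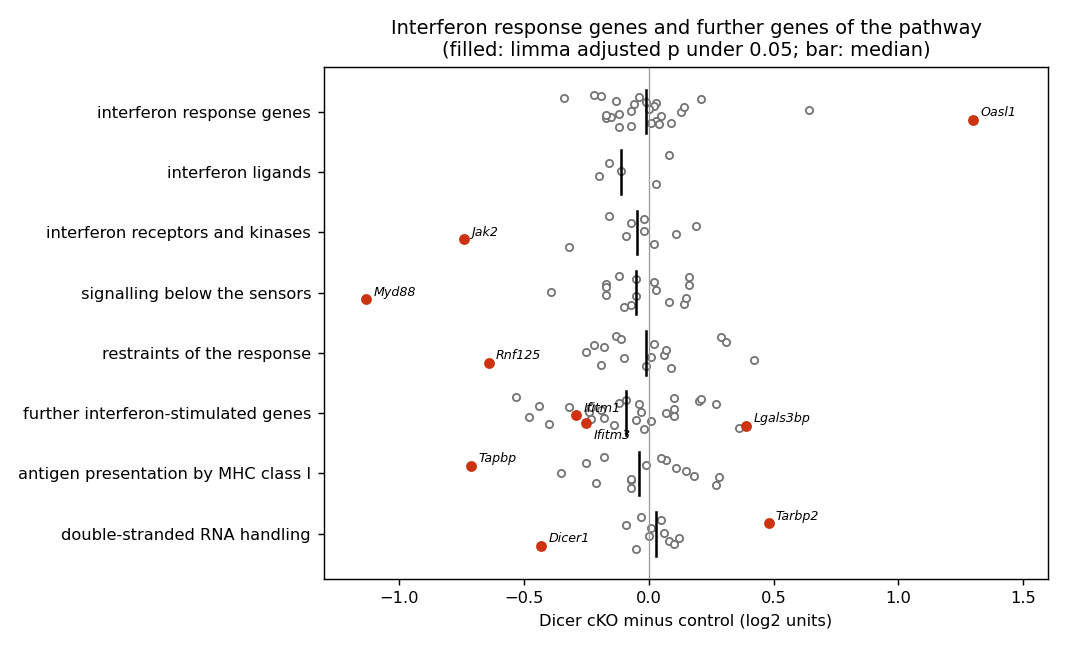
Difference between Dicer cKO and control pools in log2 units (x axis) for the 27 interferon response genes and the tested genes of 7 further lists of the pathway (y axis). Filled points had a limma adjusted p under 0.05, bars are medians; the medians lie between -0.11 and 0.03, and Oasl1, Lgals3bp and Tarbp2 are the filled points to the right of 0.

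Leukocytes express many interferon response genes, so their markers were read beside it. Of 18 macrophage and myeloid markers tested, 5 were called higher in Dicer cKO pools, against 2.78% of all genes, and 11 had an unadjusted p under 0.05, against 20.8%. The list was chosen with earlier results of these data known, so these counts are a description and not an independent test. The 5 were Lyz2 (0.83), Lyz1 (0.79), Cd68 (0.81), C1qb (0.56) and Mpeg1 (0.66). Lyz1 and Lyz2 are near-identical copies that their probes may not tell apart. Cd14 was called lower (-1.81), and the median of the list was 0.32. Their summed normalized intensity, on a linear scale, was 7134, 6354 and 7592 in controls 7, 9 and 11. In Dicer cKO pools 10 and 12 it was 8457 and 10173, above the controls. Such a sum weighs bright genes most, and Lyz1 was the brightest marker in every pool. Its log2 intensity was 11.17, 10.99 and 11.46 in the controls and 11.91 and 12.09 in the Dicer cKO pools. The order of the sums therefore does not stand for the list as a whole. Itgam and Itgax were detected on no array. The part of these cells in the Oasl1 and Usp18 values was not tested. Limma called none of 6 T and NK cell, 3 B cell, 2 neutrophil, 3 plasmacytoid dendritic cell and 6 pan-leukocyte markers, and none of these had an unadjusted p under 0.05. The pan-leukocyte sum ran from 2011 to 2665 in the controls and stood at 2389 and 3061 in Dicer cKO pools 10 and 12, so these groups overlapped. The sum of T and NK cell markers ran from 672 to 813 in the controls, against 670 and 796, and that of plasmacytoid dendritic cell markers, which include Bst2, from 89 to 185, against 149 and 144. Cd4, Cd8a, Cd79a, Ms4a1 and Ptprc were detected on no array.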

How the data were processed

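Each array file gives, per probe, a mean bead intensity that the authors deposited on a linear scale, neither background-subtracted nor normalized as its values show, made with BeadStudio (version not stated) per the submitters' processing notes. Detection p was taken as 1 minus the detection score that the authors deposited, since the score is higher for brighter probes. Bead SDs and bead numbers are per the file headers. The labels name a human BeadChip, while the files' gene names are those of mouse genes and were used.

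Intensities were corrected by normexp with an offset of 16, quantile-normalized and log2-transformed (neqc, limma 3.58.1, R 4.3.3). Of 45281 probes, 22845 with detection p under 0.05 on at least 2 of 5 arrays were kept. Array names were brought to RefSeq symbols (GRCm38.p6). Dicer cKO and control pools were compared by limma with an intensity trend, 2-sided, adjusted over 15733 genes. The fit alone was also run on simulated normalized values. That run did not cover the background correction, the detection filter or the choice of probe. Differences are Dicer cKO minus control in log2 units with the SE of the fit, compressed for dim genes by the offset. No slide or scan information was found, so no batch was tested. Arrays within a group differed by more than bead error (median squared difference over bead variance 1.36 to 1.98, against 2.05 to 3.92 between groups), so none was merged.

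The genes followed and the gene lists were chosen with earlier results of these data known. Values by pool are given for called members, members whose groups do not overlap and the 2 of each role group with the largest moderated t. Of further pathway lists, called genes are named, at most 4, or the 1 with the largest moderated t. The rule does not cover cell type markers, of which all called ones are named. A series-wide value table was not used, since its row identifiers match no column of the array files. A gene of the further lists is not reported here.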

Additional observations from a re-analysis of the deposited data

How the results depend on the processing

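No paired analysis was possible because the control and Dicer cKO pools share no number. Over 14 alternative settings, Oasl1 was tested in 13 and called higher in all 13 (difference 0.67 to 1.46, limma adjusted p from 0.000825 to 0.0273), and it was the 1 member called higher except as follows. With detection required on all 5 arrays Oasl1 was not tested and 0 members were called higher. With a robust spread 2 were (Oasl1 and Usp18). With 1 pool left out, 1 to 2 members were called higher and 0 to 1 lower, the latter being Gbp2 without pool 12, and the members' median ran from -0.12 to 0.04. Calls over all genes ran from 304 (without pool 10) to 986 with 1 pool left out. They were 622 without pool 7 and 652 without pool 9, against 1061. Members that were not called changed sign in some settings. With median centring Ddx58 stood at -0.03, Stat2 at -0.04, Mx2 at -0.00, Bst2 at -0.00 and Ifi35 at -0.04. With probes averaged Dhx58 stood at -0.12, and with array weights Stat2 at -0.00 and Bst2 at -0.03. With 1 pool left out the differences ran from -0.05 to 0.14 for Ddx58, -0.05 to 0.25 for Dhx58, -0.11 to 0.08 for Zbp1, -0.00 to 0.06 for Irf1, -0.07 to 0.05 for Irf3, -0.61 to 0.23 for Irf7, -0.30 to 0.01 for Irf9, -0.05 to 0.04 for Stat2, -0.06 to 0.32 for Oas1g, -0.31 to 0.73 for Oas2 and -0.19 to 0.48 for Oasl2. They ran from -0.37 to 0.13 for Ifit2, -0.51 to 0.24 for Ifit3, -0.01 to 0.07 for Mx2, -0.27 to 0.26 for Rsad2, -0.25 to 0.27 for Bst2, -0.45 to 0.34 for Isg15, -0.35 to 0.02 for Ifi27, -0.17 to 0.08 for Ifi44, -0.04 to 0.08 for Ifi35 and -0.35 to 0.02 for Psmb9. The cause was not tested. Averaging probes leaves Oasl1 as it was, since 1 of its probes was kept. A group left with 1 pool is assumed to vary like the other. The series-wide value table was not run as an alternative, since its rows could not be named.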
